A study of Mus musculus with 16 samples.

Results

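Hearts of Clock mutant and wild-type (WT) mice that had both eaten a high-fat diet (HFD) were compared, 4 hearts against 4, out of 16 hearts in the series. The 8 hearts were taken by their labelled genotype and diet. Every gene read by at least 1 probe set with a single gene symbol was used, which gave 22180 genes from 23521 of 34351 probe sets. All mice had the C57Bl/6J background. The Clock mice were labelled as transgenic and carried the delta 19 allele of Clock in both copies, and the controls were wild type. Mice of both groups had been on the HFD for 24 weeks and had reached 32 weeks of age when the myocardium was taken, 7 hours into the light phase (ZT07). The other 8 hearts came from the same 2 genotypes on standard chow. The sex of the mice and the make-up of the diets are stated in no source used here, and the allele is not limited to the heart, so changes that begin in the heart and changes that begin elsewhere in the mouse cannot be told apart.

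Each heart was read on 1 Affymetrix array from 500 ng of total RNA. The deposited values are logarithms from which the 16-array median of each probe set was removed, so a value of 0 means the middle of the 16 hearts and a negative value a heart below it. Neither the base nor the sign is stated in any source used here. They were taken as base 2 and as positive for more transcript. Because no absolute level is left, one gene's level cannot be set against another's, and whether the markers of myocardium were present at all cannot be checked. Differences below are Clock minus WT on this log2 scale, followed by ± their standard error from limma, with n = 4 hearts in each group. Adjusted p-values are two-sided, from limma with Benjamini-Hochberg adjustment over all 22180 genes, and a gene is said to rise or fall in the Clock hearts where that value is under 0.05. The gene lists and marker lists used below were chosen with earlier results of these data known, so their counts and medians are descriptions.

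The circadian clock of a heart cell is a feedback loop of transcription factors. CLOCK pairs with BMAL1, the product of Arntl, and the pair switches on genes through DNA sites called E-boxes. Among these genes are the PER and CRY proteins, which then block the pair, and the REV-ERB receptors (Nr1d1, Nr1d2), which repress Arntl through sites called ROREs that the ROR receptors use to activate it. A further layer of factors, DBP, TEF and HLF, activates genes through D-boxes, while NFIL3 represses at the same sites. The delta 19 mutation gives a CLOCK protein that still binds BMAL1 but activates poorly. In the heart the clock is known to act on metabolism, electrical activity and growth over the day. All 8 hearts were taken at 1 time of day, so a rhythm that was moved in time and a rhythm that was flattened cannot be told apart here.

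The stretches below, from RefSeq promoters on GRCm38.p6, are shown because they hold the sites just described in genes whose transcripts differed between the groups. The windows searched run from 250 bases before to 50 bases after a start site, on both strands, and capitals mark the motif. The motifs do not overlap one another in these stretches.
Ciart, with 3 copies of the E-box CACGTG, chr3:95882254-95882353, minus strand: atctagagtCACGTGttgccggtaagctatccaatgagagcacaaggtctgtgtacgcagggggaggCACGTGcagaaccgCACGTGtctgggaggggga
Tef, with 1 E-box, chr15:81802513-81802582, plus strand: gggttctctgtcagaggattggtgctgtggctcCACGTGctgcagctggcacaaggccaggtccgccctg
Bhlhe41, with 1 E-box, chr6:145865536-145865605, minus strand: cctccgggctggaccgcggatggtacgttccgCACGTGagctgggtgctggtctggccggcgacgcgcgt
Nr1d1, with the variant E-box CACGTT read on the other strand as AACGTG, chr11:98775378-98775442, minus strand: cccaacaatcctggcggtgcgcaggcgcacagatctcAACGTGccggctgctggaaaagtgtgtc
Per3, with 2 copies of the D-box TTATGTAA, chr4:151044806-151044885, minus strand: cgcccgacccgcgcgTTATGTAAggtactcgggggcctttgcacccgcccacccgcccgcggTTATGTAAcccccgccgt
Coq10b, with a D-box read on the other strand as TTACATAA and an E-box, chr1:55052600-55052704, plus strand: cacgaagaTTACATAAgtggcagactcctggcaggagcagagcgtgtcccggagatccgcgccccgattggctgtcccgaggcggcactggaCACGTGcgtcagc
Nfil3, with the RORE core TAGGTCA read on the other strand as TGACCTA, chr13:52981040-52981099, minus strand: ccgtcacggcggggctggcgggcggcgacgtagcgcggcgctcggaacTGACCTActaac
Arntl, with the RORE core, just after the start site, chr7:113207532-113207559, plus strand: ggcagaaagTAGGTCAgggacggaggtg
Ciart, Tef, Bhlhe41, Nr1d1, Per3 and Coq10b fell in the Clock hearts, and Nfil3 and Arntl rose. The E-box was also present in the windows of Cry1, Per1, Tspan4 and Pfkfb3, which did not pass the test. It lay as well in Slc41a3, Rcan1, Ppp1r3c and Hsph1, which rose, and in Prxl2a, which fell. The variant CACGTT, read on either strand, lay in Ddit4, Egf and Ppp1r3c, which rose, and in Fmo2 and Cry2, which fell. Cry1 and Rorb, which did not pass, held it too. The E-box and its variant thus did not go with 1 direction. A window was given for 24 of 26 measured clock genes, and 7 of them held an E-box, so most clock genes had no perfect E-box in this window.

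The share of genes with an E-box was slightly larger among those that differed, but no test compared the shares. The E-box lay in the windows of 9.19% of 16990 measured genes with a promoter. Among 193 genes that rose it was 11.4%, or 22 genes, and among 132 that fell 13.6%, or 18 genes. The variant CACGTT was found in 5.56% of all, 6.22% of the higher and 5.3% of the lower genes. A D-box, TTACGTAA or TTATGTAA, was rarer, at 1.16% of all genes, 0.518% of the higher ones and 3.03% of the lower ones, which is 4 genes, among them Per3, Coq10b and Ptgds. The RORE core lay in 2.72%, 3.63% and 1.52%. A match is a match of letters and was not tested as a site.

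In all, 422 genes differed between Clock and WT hearts on HFD, which is 1.90% of those tested. In the Clock hearts 251 rose (1.13% of the genes tested) and 171 fell (0.771%). Most of the differences were small, with a median size of 0.38, or 1.3-fold. Only 20 genes differed by more than 1 on the log2 scale, 9 of them higher and 11 lower, while 319 differed by no more than 0.5. The 4 Clock values did not overlap the 4 WT values in 414 of the 422, a pattern that 8.89% of all genes had. The 422 were chosen by a test on these same values, so their separation is partly given by that choice. The median difference over all genes was 0.0003, with medians of the arrays between -0.00154 and 0.00281. The arrays thus had nearly equal medians, and their normalization is not stated, so a shift of all genes together could not be seen in these values. Without Clock replicate 2 the count was 241, and without Clock replicate 3 it was 266. Of the 422 genes, 193 passed without each of the 8 hearts in turn.

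Many of the largest differences were in genes of the clock itself. Of 5 measured genes of its positive arm, 2 rose and 1 fell, with a median difference of 0.28. Arntl encodes BMAL1, the partner of CLOCK. Its values were 0.05, 0.09, 0.06 and -0.05 in the Clock hearts and -1.54, -1.94, -2.12 and -1.93 in the WT hearts. Every WT heart on HFD was deep below the 16-heart median, every Clock heart was near it, and the groups were more than 1 log2 unit apart at their closest. Arntl was thus 1.92 ± 0.26 higher in the Clock hearts, or 3.77-fold (adjusted p = 0.000746), the largest rise among the genes that passed.

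The transcript of Clock itself lay at 0.05, -0.01, 0.04 and 0.01 in the Clock hearts and at -0.20, -0.43, -0.54 and -0.43 in the WT hearts. The groups did not overlap, and the rise was 0.42 ± 0.08 (adjusted p = 0.00965). No source used here says which part of the transcript the probes match, so this value does not check the genotype. Npas2, a stand-in for CLOCK in some tissues, ranged from -0.12 to 0.17 in Clock hearts and from -0.41 to -0.06 in WT hearts. Its groups overlapped, at 0.28 ± 0.16 (adjusted p = 0.467). Rora, an activator at ROREs, went the other way, at 0.04, -0.06, -0.11 and -0.12 in Clock hearts and 0.19, 0.33, 0.32 and 0.26 in WT hearts. It fell by 0.34 ± 0.05 (adjusted p = 0.00134) with no overlap, while its relative Rorb differed by 0.01 ± 0.12 (adjusted p = 0.99).

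Of 12 measured genes of the negative arm 6 fell, 1 rose and 5 did not pass, with a median difference of -0.51. The REV-ERB genes fell in all 4 Clock hearts. Nr1d2 lay at -0.09, -0.16, -0.19 and -0.22 in the Clock hearts and at 1.10, 1.37, 1.41 and 1.27 in the WT hearts. No Clock heart came within 1 log2 unit of a WT heart, and the difference was -1.45 ± 0.16, a 2.74-fold fall (adjusted p = 7.86e-05). Nr1d1 lay at -0.39, -0.67, -0.61 and -0.49 in the Clock hearts against 0.50, 0.50, 0.49 and 0.50 in the WT hearts. The WT hearts were almost identical in this gene, and its difference was -1.04 ± 0.11 (adjusted p = 7.13e-05).

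The repressors of the CLOCK and BMAL1 pair did not all move. Per3, a period gene, lay at -0.45, -0.08, -0.30 and 0.01 in Clock hearts and at 0.93, 1.22, 1.22 and 1.19 in WT hearts. It fell by 1.34 ± 0.15 (adjusted p = 0.000115), with a wide gap between the groups. Cry2 fell by 0.64 ± 0.12 (adjusted p = 0.0115), from 0.33 to 0.72 in WT hearts to -0.25 to -0.10 in Clock hearts. Its relative Cry1 overlapped between the groups and differed by 0.04 ± 0.08 (adjusted p = 0.897). Per1, which also answers to stress and hormones, spread from -0.21 to 0.58 in WT hearts and from -0.27 to 0.22 in Clock hearts. Its groups overlapped, at -0.18 ± 0.27 (adjusted p = 0.854).

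Ciart, a repressor that binds the CLOCK and BMAL1 pair, lay at -0.36, -0.22, -0.20 and -0.45 in the Clock hearts and at 0.67, 1.14, 1.29 and 1.05 in the WT hearts. The groups stood well apart, with a difference of -1.35 ± 0.25 (adjusted p = 0.00892). Bhlhe41, or DEC2, which competes for E-boxes, lay at -0.24, -0.27, -0.02 and -0.10 against 0.57, 0.88, 0.74 and 0.68. It fell by 0.88 ± 0.15 (adjusted p = 0.00581) without overlap. Its relative Bhlhe40 (DEC1) overlapped, at -0.38 ± 0.19 (adjusted p = 0.406). Nfil3 was the gene of this arm that rose, with 0.17, 0.04, 0.51 and 0.02 in the Clock hearts and -0.72, -0.52, -0.27 and -0.32 in the WT hearts. The groups did not overlap and differed by 0.64 ± 0.13 (adjusted p = 0.0176). That call was lost without Clock replicate 3, WT replicate 1 or WT replicate 2, with 0.0616 as the largest adjusted p. The kinase gene Csnk1e (-0.14 ± 0.06, adjusted p = 0.283) and Fbxl21 (-0.07 ± 0.05, adjusted p = 0.632), whose products set how long the PER and CRY proteins last, did not pass.

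Of 10 genes in the list of D-box factors and direct clock outputs, which also holds Ciart, 6 fell and 1 rose, with a median of -0.42. Dbp, a direct target of CLOCK and BMAL1, lay at -0.52, -0.40, -0.37 and -0.52 in the Clock hearts and at 1.86, 2.36, 2.45 and 2.42 in the WT hearts. The gap between the groups was over 2 log2 units, and the difference of -2.73 ± 0.27, a 6.62-fold fall, was the largest of all 22180 genes (adjusted p = 5.47e-05). Its relatives moved less. Tef fell by 0.35 ± 0.07 (adjusted p = 0.0167), with one of its 2 probe sets at -0.74 and the other at 0.05. Hlf fell by 0.50 ± 0.11 (adjusted p = 0.0208), from 0.23 to 0.61 in WT hearts to -0.21 to 0.09 in Clock hearts. Tef lost its call without Clock replicate 2, WT replicate 2 or WT replicate 4 (largest adjusted p = 0.0627), and Hlf without Clock replicates 1, 3 or 4 or WT replicates 3 or 4 (largest adjusted p = 0.0731).

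Among the outputs, Wee1, the kinase gene that holds cells before mitosis, lay at 0.05, -0.26, 0.04 and -0.20 in the Clock hearts and at 0.66, 0.84, 1.20 and 1.14 in the WT hearts. It fell by 1.05 ± 0.15 (adjusted p = 0.00117) with no overlap. Usp2, a deubiquitinase gene, lay at -0.36, -0.10, -0.03 and -0.01 against 0.57, 0.79, 0.91 and 0.79. It fell by 0.89 ± 0.12 (adjusted p = 0.000981). Cdkn1a, the p21 inhibitor of the cell cycle, moved the opposite way, at 0.43, 0.47, 0.52 and 0.16 in the Clock hearts and -1.20, -1.42, -1.04 and -1.80 in the WT hearts. The groups were over 1 log2 unit apart, and the rise of 1.76 ± 0.23, or 3.38-fold (adjusted p = 0.000722), came next to that of Arntl. Tspan4, Pfkfb3 and Avpr1a differed by -0.20, -0.16 and -0.20 and did not pass (adjusted p = 0.383, 0.444 and 0.294).

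**Figure D1:**
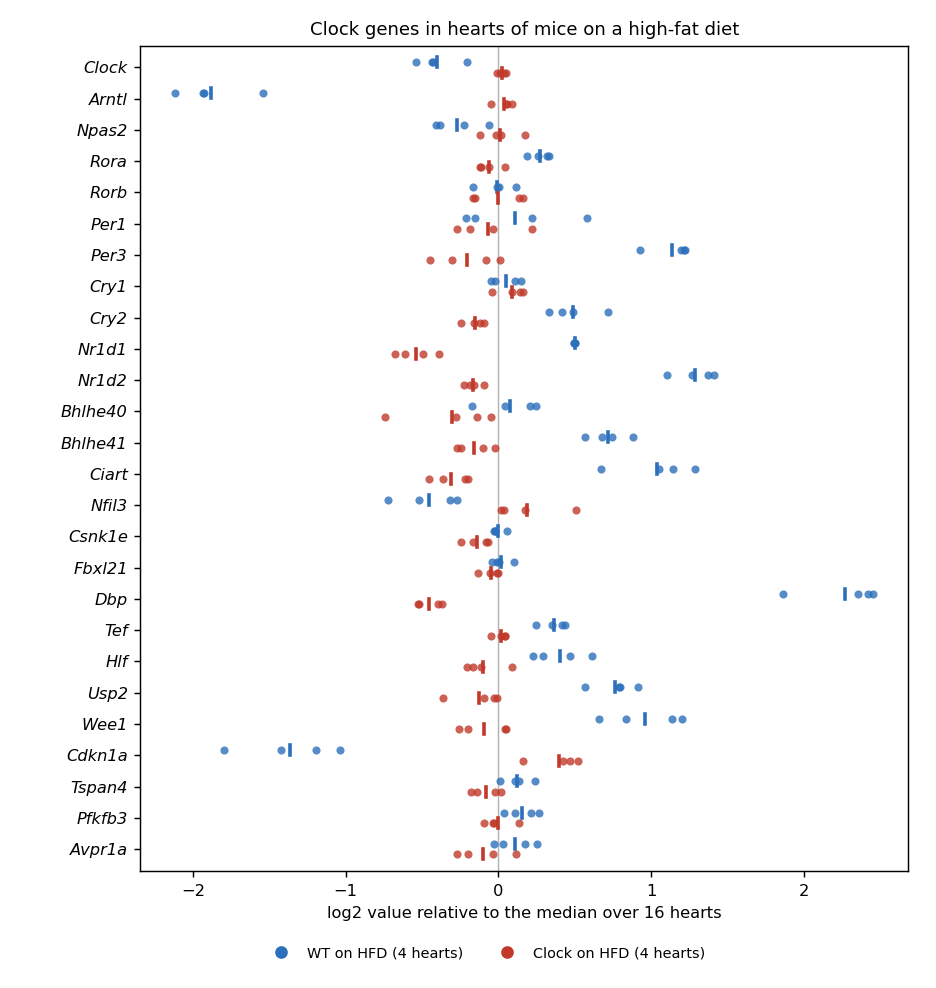
Values of the 26 measured clock genes in each heart on HFD, on the log2 scale relative to the 16-heart median. Each point is 1 heart and each bar the mean of 4 hearts. Arntl and Cdkn1a lie to the left in WT hearts (means of -1.88 and -1.36), Dbp lies far to the right (2.27), and most genes of the Clock hearts lie near 0.

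In Arntl, Dbp and Nr1d2 the Clock hearts sat closer to the 16-heart median than the WT hearts. Clock means were 0.04, -0.45 and -0.17 against WT means of -1.88, 2.27 and 1.29. In Nr1d1 the Clock hearts were no closer, with means of -0.54 in Clock and 0.50 in WT hearts. The median itself comes from all 16 hearts, so this is a position among these hearts and no level.

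Outside the clock the largest rises were in genes of transport, vessels, muscle stress and amino acid metabolism. Slc41a3, a magnesium transporter gene, lay at 0.26, 0.32, -0.01 and 0.20 in the Clock hearts and at -1.02, -0.83, -1.21 and -1.04 in the WT hearts. The groups were clearly apart and differed by 1.22 ± 0.13, or 2.33-fold (adjusted p = 6.78e-05). Slc17a7, a vesicular glutamate transporter gene best known from neurons, lay at 0.66, 1.00, 0.73 and 0.75 against -0.37, -0.41, -0.16 and -0.50. It rose by 1.14 ± 0.12 (adjusted p = 5.47e-05). These were the 2 of 20 amino acid and solute carriers that rose, and none fell. The list had a median of 0.04.

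Cldn5 encodes claudin 5, a tight junction protein of endothelial cells. Its values were 0.27, 0.63, 0.81 and -0.02 in the Clock hearts and -0.70, -0.65, -0.93 and -0.86 in the WT hearts. The 4 WT hearts were tightly low and the Clock hearts spread above them, a rise of 1.21 ± 0.17 (adjusted p = 0.00089). Rhoj, a small GTPase gene of endothelial cells, was in a narrow range of -0.61 to -0.54 in WT hearts and rose by 0.75 ± 0.11 (adjusted p = 0.00139). Bcl6b, a transcriptional repressor gene found in endothelium, rose by 0.68 ± 0.13 (adjusted p = 0.012), with adjusted p = 0.0502 without Clock replicate 2. Thbs1, the matrix protein thrombospondin 1, spread widely, at 0.54, 0.17, 0.10 and -0.63 in Clock hearts and -1.06, -0.69, -0.83 and -1.88 in WT hearts. In both groups replicate 4 was the lowest, and the groups almost touched. The rise of 1.16 ± 0.27 passed (adjusted p = 0.0386) but was lost without any of Clock replicates 1 to 3 or WT replicates 1, 3 and 4 (largest adjusted p = 0.116).

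Genes that answer to calcineurin and stretch were also among the largest rises. Rcan1, a calcineurin inhibitor that calcineurin itself induces, lay at 0.08, 0.13, 0.42 and 0.03 in Clock hearts and at -0.65, -0.76, -0.90 and -1.35 in WT hearts. It rose by 1.08 ± 0.14 (adjusted p = 0.000734) with no overlap. Ankrd23, a titin-binding ankyrin repeat gene of muscle, lay at 0.48, 0.61, 0.60 and 0.35 against -0.46, -0.22, -0.77 and -0.65. It rose by 1.04 ± 0.13 (adjusted p = 0.000485). With Uck2 (0.31 ± 0.06), they were the 3 of 24 stretch and calcineurin genes that rose. Mef2a fell by 0.19 ± 0.04 (adjusted p = 0.04), a call that was kept only without WT replicate 4 (largest adjusted p = 0.118). Abra, an activator of SRF in striated muscle, rose by 0.73 ± 0.16 (adjusted p = 0.0283). Its call was lost without Clock replicates 2 or 3 or WT replicates 2 or 4 (largest adjusted p = 0.0876). The list's median was 0.04, and the natriuretic peptide genes Nppa and Nppb, the usual markers of wall stress, differed by -0.23 and 0.71 without passing (adjusted p = 0.84 and 0.27); both were chosen after their values were seen.

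Mthfd2, the mitochondrial folate enzyme, lay in a tight band in the Clock hearts, at 0.87, 0.84, 0.98 and 0.88, and at -0.02, 0.02, -0.12 and -0.25 in the WT hearts. It rose by 0.98 ± 0.10, or 1.98-fold (adjusted p = 5.47e-05). Ddit4, an inhibitor of mTOR also called REDD1, lay at 0.88, 0.77, 0.47 and 0.67 against -0.10, 0.04, -0.34 and -0.36 and rose by 0.89 ± 0.12 (adjusted p = 0.000684). Atf4, the transcription factor of the amino acid response, rose by 0.42 ± 0.08 (adjusted p = 0.00938), and its relative Atf5 by 0.44 ± 0.08 (adjusted p = 0.00465). These were 4 of 22 measured ATF4 targets and serine and folate enzymes, and 17 of the 22 differences were positive, against 50.2% of all genes. The list's median was 0.11 against 0.0003 for all genes. Like the other lists, this one was chosen with earlier results known, so the comparison is a description. The mean of the list lay between 0.10 and 0.23 in the 4 Clock hearts and between -0.10 and -0.05 in the 4 WT hearts, without overlap. List means also did not overlap for the calcium handling genes, of which none passed.

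Of 26 aminoacyl-tRNA synthetase and ribosome biogenesis genes 4 rose, all of them synthetases, which load tRNAs with amino acids. Nars lay at 0.28, 0.32, 0.31 and 0.33 in Clock hearts and at -0.01, 0.11, -0.06 and -0.04 in WT hearts, apart by 0.31 ± 0.06 (adjusted p = 0.00974). Sars (0.42 ± 0.10), Yars (0.34 ± 0.07) and Hars (0.28 ± 0.06) passed as well, at adjusted p = 0.0341, 0.0201 and 0.0241. The list's median was 0.07, and the count was 1 without Clock replicate 2 or WT replicate 3 and 2 without Clock replicates 3 or 4 or WT replicate 1.

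Plac9a, which encodes a small secreted protein, had the same answer in each of its 3 probe sets (1.03, 1.03 and 0.97). Its values were 0.57, 0.60, 0.50 and 0.33 in Clock hearts and -0.39, -0.47, -0.74 and -0.45 in WT hearts, a rise of 1.01 ± 0.08 (adjusted p = 4.45e-06). Vwa3a (0.81 ± 0.11, adjusted p = 0.00107), Trp53i11 (0.77 ± 0.13, adjusted p = 0.00573) and the growth factor gene Egf (0.67 ± 0.09, adjusted p = 0.000879) also rose. Trp53i11 and Cdkn1a were the 2 of 20 p53 targets and cell cycle inhibitors that rose, and the list's median was 0.03. None of 25 cell division genes passed, with Mki67 at -0.26 ± 0.11 (adjusted p = 0.267).

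The largest fall outside the clock lists was in Ces1d, a carboxylesterase that cleaves triglycerides. It lay at -0.65, -0.56, -0.38 and -0.56 in the Clock hearts and at 1.90, 1.93, 2.24 and 1.98 in the WT hearts. No 2 hearts of different genotype were closer than 2 log2 units, and the difference of -2.55 ± 0.19, a 5.84-fold fall (adjusted p = 1.41e-06), came next to that of Dbp. The Ces1 genes are near copies of each other, so how far this probe set reads only Ces1d is uncertain. Ces1d was the only one of 19 triglyceride hydrolases and lipid droplet genes to pass, and the list's median was -0.01.

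Ano4, which encodes a membrane scramblase of the anoctamin family, had the smallest p of the comparison. It lay at -0.48, -0.59, -0.53 and -0.73 in Clock hearts and at 0.72, 0.57, 0.57 and 0.74 in WT hearts. The hearts of each group were close together and 1 log2 unit from the other group, with a difference of -1.23 ± 0.06 (adjusted p = 3.34e-08). Its relative Ano5 fell by 0.64 ± 0.12 (adjusted p = 0.00768), while the chloride channel gene Ano1 rose by 0.40 ± 0.10 (adjusted p = 0.0415). Jam2, a junction adhesion gene, lay at -0.48, -0.53, -0.58 and -0.50 against 0.16, 0.27, 0.26 and 0.19 and fell by 0.75 ± 0.05 (adjusted p = 4.82e-07). A noncoding RNA gene, Gm19522, fell by 1.57 ± 0.10 (adjusted p = 3.15e-07), from 0.50 to 0.81 in WT hearts to -1.13 to -0.75 in Clock hearts.

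Ptgds, the prostaglandin D2 synthase gene, lay at -0.72, -0.33, -0.65 and -0.45 in Clock hearts and at 0.99, 0.48, 0.33 and 1.09 in WT hearts. The groups did not overlap, and it fell by 1.26 ± 0.22 (adjusted p = 0.00646). Mylk4, a kinase gene of striated muscle, fell by 1.04 ± 0.11 (adjusted p = 6.62e-05), from 0.26 to 0.75 in WT hearts to -0.78 to -0.49 in Clock hearts. Coq10b, which helps coenzyme Q work in the respiratory chain, lay at -0.29, -0.31, -0.15 and -0.42 against 0.64, 0.48, 0.75 and 0.61. It fell by 0.91 ± 0.13 (adjusted p = 0.00117) with no overlap. Fmo2, a flavin monooxygenase gene, lay at -0.32, -0.11, -0.27 and -0.20 against 0.44, 0.73, 0.67 and 0.90 and fell by 0.91 ± 0.09 (adjusted p = 5.47e-05).

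Mme, the gene of neprilysin, which cuts natriuretic peptides, lay at -0.36, -0.09, -0.14 and -0.29 in Clock hearts and at 0.65, 0.42, 0.75 and 0.84 in WT hearts. It fell by 0.89 ± 0.11 (adjusted p = 0.000308). Prg4, the lubricating proteoglycan gene, fell by 0.91 ± 0.14 (adjusted p = 0.00272), and Pde11a, a phosphodiesterase gene, by 0.74 ± 0.10 (adjusted p = 0.000722). Prxl2a, a peroxiredoxin-like gene, fell by 0.92 ± 0.07 (adjusted p = 2.8e-06), from 0.27 to 0.38 in WT hearts to -0.68 to -0.48 in Clock hearts. Vmn1r3, from a large family of near-identical receptor genes of the vomeronasal organ, fell by 0.93 ± 0.12 (adjusted p = 0.000696), and which family members its probes read is uncertain.

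**Figure D2:**
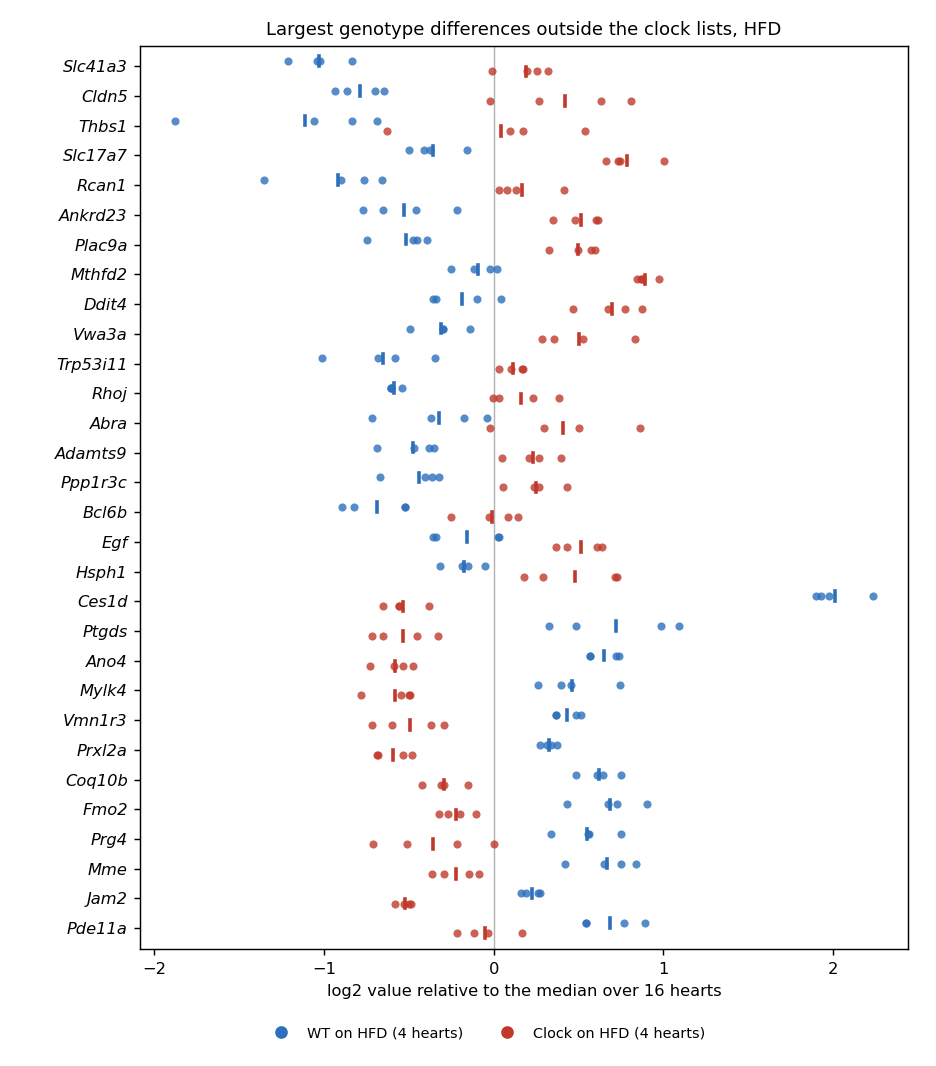
The 30 genes outside the clock lists among the 20 largest rises and 20 largest falls, with the value of each heart on HFD on the log2 scale relative to the 16-heart median and a bar at each group's mean. The groups do not overlap in any of them, which the rule for naming them asked for, and the points of Abra (0.73) and Thbs1 (1.16) come close to touching, while those of Ces1d (-2.55) lie far apart.

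The energy genes of the heart differed in single members more than as groups. None of 21 mitochondrial fatty acid oxidation genes passed, the list's median was -0.03, and its member with the smallest p, Eci2, lay at -0.19 ± 0.06 (adjusted p = 0.121). At an unadjusted p under 0.05, 2989 genes of all 22180 passed. Of 17 fatty acid uptake and activation genes 1 rose: Mgll, the monoglyceride lipase gene, by 0.44 ± 0.10 (adjusted p = 0.0225), a call lost without Clock replicates 2 or 4 or WT replicates 1 or 3 (largest adjusted p = 0.0784). Bdh1, which oxidises the ketone body beta-hydroxybutyrate, lay at -0.44, -0.08, -0.30 and -0.44 in Clock hearts and at 0.47, 0.31, 0.08 and 0.70 in WT hearts. It fell by 0.71 ± 0.12 (adjusted p = 0.00539) and was the only one of 15 ketone body and pyruvate genes to pass.

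Of 21 glucose uptake and glycolysis genes 2 rose and none fell, with a median of 0.08. Hexokinase 1 (Hk1) lay at 0.21, 0.19, 0.03 and 0.13 in Clock hearts and at -0.37, -0.20, -0.29 and -0.32 in WT hearts. It rose by 0.44 ± 0.07 (adjusted p = 0.00162) without overlap. Pfkp, the platelet form of phosphofructokinase, lay at 0.13, 0.47, 0.34 and 0.47 against -0.09, -0.28, -0.51 and -0.31 and rose by 0.65 ± 0.10 (adjusted p = 0.00183). Both calls held without each of the 8 hearts. In glycogen metabolism Ppp1r3c, which brings protein phosphatase 1 to glycogen, rose by 0.69 ± 0.14 (adjusted p = 0.014), or 0.057 without Clock replicate 2. It was 1 of 15 glycogen and hexosamine genes to pass.

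A few genes of cholesterol synthesis and of branched-chain amino acid breakdown fell. Fdft1, squalene synthase, lay at -0.08 to -0.16 in 3 Clock hearts and near 0 in replicate 2, against 0.27, 0.43, 0.47 and 0.39 in WT hearts. It fell by 0.47 ± 0.08 (adjusted p = 0.00333). Hsd17b7 (-0.57 ± 0.12, adjusted p = 0.0156) and Pmvk (-0.26 ± 0.06, adjusted p = 0.0416) also fell, so that 3 of 19 cholesterol genes fell and none rose, although the list's median was 0.02. Without Clock replicate 2, WT replicate 3 or WT replicate 4 the count was 1. Of 21 genes of branched-chain amino acid breakdown 2 fell: Dbt, the core of the branched-chain dehydrogenase (-0.28 ± 0.06, adjusted p = 0.0127), and Mmut, methylmalonyl-CoA mutase (-0.22 ± 0.05, adjusted p = 0.0246). That list's median was 0.02, and 12 of its 21 differences were positive. The Mmut call was kept only without Clock replicate 1 (largest adjusted p = 0.0807). One of 34 respiratory chain and mitochondrial genes rose, Cox7a1, the muscle form of a cytochrome oxidase subunit, by 0.24 ± 0.05 (adjusted p = 0.0122).

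A pair of NAD-making enzymes differed in opposite directions. Nampt, the rate-limiting enzyme of NAD salvage and a known clock output, lay at -0.03, -0.18, -0.17 and -0.25 in Clock hearts and at 0.43, 0.38, 0.32 and 0.24 in WT hearts. It fell by 0.50 ± 0.07 (adjusted p = 0.00119), and the groups did not overlap. Naprt, which starts from nicotinic acid, rose by 0.21 ± 0.05 (adjusted p = 0.0352), a call lost without any 1 of the 8 hearts (largest adjusted p = 0.112). The other 22 of 24 iron, heme and NAD genes did not pass.

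Stress and protein turnover lists also changed in few members. Among 34 antioxidant and detoxification genes 3 rose, the secreted superoxide dismutase Sod3 (0.48 ± 0.09, adjusted p = 0.0092), the quinone reductase Nqo1 (0.41 ± 0.09, adjusted p = 0.0309) and the thioredoxin reductase Txnrd1 (0.25 ± 0.06, adjusted p = 0.0329). Both glutathione transferases that passed fell, Gstt1 by 0.57 ± 0.08 (adjusted p = 0.00134) and Gsta3 by 0.39 ± 0.07 (adjusted p = 0.00745), in families whose members resemble each other. The count of 3 was 1 without Clock replicates 2 or 3 or WT replicates 1, 3 or 4. The calpain genes Capn2 (0.28 ± 0.07, adjusted p = 0.0474) and Capn3 (0.35 ± 0.08, adjusted p = 0.027) were the 2 of 31 ubiquitin and muscle breakdown genes that rose, and Usp2 the 1 that fell; the count that rose was 0 without Clock replicates 2, 3 or 4 or WT replicates 3 or 4. None of 17 endoplasmic reticulum chaperones passed, with a median of -0.02.

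The heat shock genes were uneven from heart to heart. Of 19 cytosolic heat shock chaperones 17 had positive differences, against 50.2% of all genes. Of the 19, 2 passed, Hsph1 (0.66 ± 0.15, adjusted p = 0.0293) and Hsp90aa1 (0.48 ± 0.12, adjusted p = 0.0483). The median was 0.10. The inducible HSP70 gene Hspa1a, picked after its values were seen, lay at 1.22, 3.05 and 1.43 in Clock replicates 1 to 3, near 0 in replicate 4 and at -0.91, -0.75, 0.14 and -1.47 in the WT hearts. Clock replicate 2 was far above the rest and replicate 4 below the highest WT heart. Their means were 2.17 ± 0.65 apart, which did not pass (adjusted p = 0.115). Its near copy Hspa1b, which the probes may not tell from it, differed by 1.76 ± 0.56 (adjusted p = 0.14). No member of the list passed without Clock replicates 1 or 2 or WT replicates 1, 2 or 3.

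**Figure D3:**
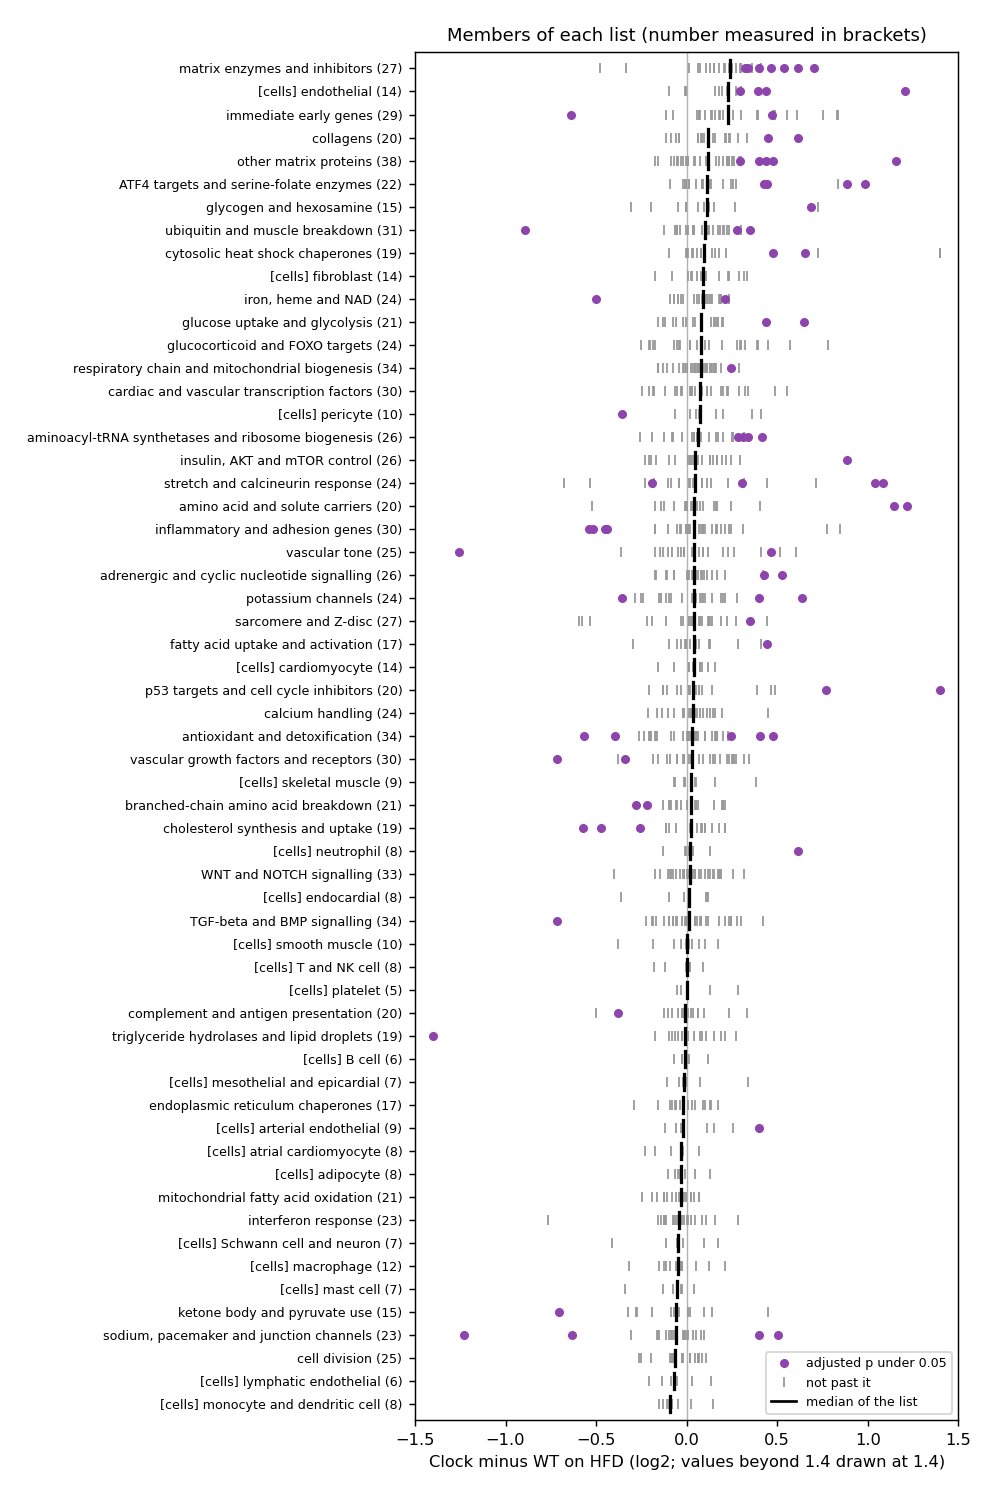
Difference between Clock and WT hearts on HFD (log2) for every measured member of each list with at least 5 measured genes, clock lists aside, ordered by the list's median. Filled points passed at adjusted p under 0.05, ticks did not, the black bar is the median, and values beyond 1.4 are drawn at 1.4. The medians lie between -0.09 and 0.24, with the matrix enzymes (0.24), endothelial markers (0.23) and immediate early genes (0.23) at the top.

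Ion channel genes moved in both directions. Of 24 potassium channel genes 2 rose and 1 fell. Kcnd2, a pore subunit of the transient outward current, lay at 0.50, 0.37, 0.34 and 0.30 in the Clock hearts and at -0.28, -0.23, -0.17 and -0.35 in the WT hearts. It rose by 0.64 ± 0.10 (adjusted p = 0.00333), with all Clock hearts above all WT hearts. Kcna5, of the ultrarapid current, rose by 0.40 ± 0.09 (adjusted p = 0.0315), a call kept only without Clock replicates 1 or 3 (largest adjusted p = 0.101). Abcc9, the sulfonylurea receptor of the ATP-sensitive channel and also a marker of pericytes, lay at -0.22, -0.24, -0.16 and -0.16 against -0.03, 0.22, 0.29 and 0.16 and fell by 0.36 ± 0.06 (adjusted p = 0.00738).

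Of 23 genes in the list of sodium, pacemaker and junction channels, which also holds anoctamins, 2 rose and 2 fell. Both that fell were anoctamin genes. Hcn2, a pacemaker channel gene, lay at 0.28, 0.25, 0.26 and 0.16 in Clock hearts and at -0.03, -0.58, -0.20 and -0.26 in WT hearts. It rose by 0.50 ± 0.11 (adjusted p = 0.022), and WT replicate 2 was the lowest of the 8 hearts. The call was lost without Clock replicates 1, 2 or 3 or WT replicates 2 or 4 (largest adjusted p = 0.0647). The other members that passed were Ano1, Ano4 and Ano5, given above. The Ano1 call was kept only without WT replicates 3 or 4 (largest adjusted p = 0.125), and no member rose without Clock replicates 1, 2 or 3 or WT replicate 2. None of 24 calcium handling genes passed (1 rose without WT replicate 4), where the calcium release channel Ryr2 was at 0.15 ± 0.05 (adjusted p = 0.128) and the median at 0.03.

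In cyclic nucleotide signalling 2 of 26 genes rose. Pde2a, a phosphodiesterase that cGMP stimulates, lay at 0.19, 0.28, 0.18 and 0.44 in Clock hearts and at -0.35, -0.04, -0.30 and -0.34 in WT hearts and rose by 0.53 ± 0.09 (adjusted p = 0.00465). Prkg1, the cGMP-dependent kinase, rose by 0.43 ± 0.09 (adjusted p = 0.0136), a call lost without Clock replicate 4 or WT replicate 3. Of 25 vascular tone genes 1 rose and 1 fell, the latter Ptgds. Ddah1, which breaks down an inhibitor of nitric oxide synthase, lay at 0.10, 0.23, 0.05 and 0.10 against -0.20, -0.36, -0.37 and -0.44 and rose by 0.46 ± 0.06 (adjusted p = 0.000728). In the sarcomere and Z-disc list 1 of 27 rose, Flnc, filamin C, by 0.35 ± 0.07 (adjusted p = 0.0189), and the call was lost without Clock replicates 3 or 4 or WT replicates 1 or 3 (largest adjusted p = 0.0662).

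In the 3 lists of extracellular matrix genes, the members that passed were higher in the Clock hearts, while Prg4, a proteoglycan gene outside them, fell. Of 27 matrix enzymes and inhibitors 7 rose and none fell, 25 had positive differences, and the median was 0.24. Over all genes 1.13% rose, 0.771% fell and 50.2% had positive differences. Mmp14, a membrane-bound metalloproteinase, lay at 0.04, -0.04, 0.10 and 0.23 in the Clock hearts and at -0.44, -0.41, -0.61 and -0.36 in the WT hearts. The groups did not overlap, with a rise of 0.54 ± 0.08 (adjusted p = 0.00117). Mmp9, a gelatinase, lay at 0.10, 0.09, 0.21 and 0.18 against -0.41, -0.54, -0.31 and -0.62 and rose by 0.61 ± 0.10 (adjusted p = 0.00465). The gelatinase Mmp2 (0.47 ± 0.10), the protease Adamts9 (0.70 ± 0.17) and the inhibitor Timp2 (0.32 ± 0.07) rose too. So did the crosslinking enzyme Loxl1 (0.40 ± 0.09) and the collagen chaperone Serpinh1 (0.34 ± 0.08), all with adjusted p from 0.0182 to 0.0388. The calls of Mmp14 and Mmp9 held whichever single heart was left out. That of Adamts9 was lost whichever heart was left out (largest adjusted p = 0.117). Mmp2, Timp2, Loxl1 and Serpinh1 each lost the call without any of several hearts (largest adjusted p = 0.0679, 0.0741, 0.0998 and 0.125).

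The size of the matrix shift held but the number of calls did not. Without 1 heart the median of the 27 matrix enzymes and inhibitors stayed between 0.20 and 0.28, while 2 to 5 members passed, with 2 without WT replicate 3 and 3 without Clock replicates 2 or 3 or WT replicate 1. The mean of the list lay between 0.01 and 0.17 in the Clock hearts and between -0.17 and -0.07 in the WT hearts. With the mean of the immediate early genes as a covariate 2 members passed, with a median of 0.21.

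Of 20 collagen genes 2 rose, both chains of basement membrane collagen IV. Col4a1 lay at 0.30, 0.21, 0.33 and 0.47 in Clock hearts and at -0.20, -0.19, -0.59 and -0.18 in WT hearts and rose by 0.62 ± 0.10 (adjusted p = 0.00446). WT replicate 3 was the lowest of the 8 in Col4a1 and in Col4a2, which rose by 0.45 ± 0.10 (adjusted p = 0.0198), a call lost without Clock replicates 3 or 4 or WT replicate 3 (largest adjusted p = 0.0685). The collagen list had a median of 0.12 and Col1a1, of fibrillar collagen, was at 0.33 ± 0.10 without passing (adjusted p = 0.115). Of 38 other matrix proteins 5 rose and none fell, with a median of 0.12: besides Thbs1 these were fibronectin Fn1 (0.48 ± 0.08, adjusted p = 0.00573), the laminin chain Lama5 (0.44 ± 0.09, adjusted p = 0.0205), the elastic fibre protein Fbln5 (0.40 ± 0.07, adjusted p = 0.00644) and the basement membrane protein Nid1 (0.29 ± 0.07, adjusted p = 0.0474). The count was 2 without Clock replicate 2, WT replicate 1 or WT replicate 4 and 3 without Clock replicates 3 or 4 or WT replicate 3.

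Few members of the TGF-beta and BMP list and of the vascular growth factor list passed, and these fell. The list medians were 0.01 and 0.03, with 19 of 34 and 18 of 30 differences positive. Over all genes 0.771% fell. Bmp4, a bone morphogenetic protein, lay at -0.61, 0.00, -0.13 and -0.11 in Clock hearts and at 0.42, 0.60, 0.58 and 0.40 in WT hearts. It fell by 0.71 ± 0.10 (adjusted p = 0.0013) and was the only one of 34 TGF-beta and BMP genes to pass, while 2 others rose without WT replicate 4. Angpt1, which steadies vessels through the TIE2 receptor, lay at -0.50, -0.64, -0.58 and -0.38 against 0.10, 0.01, 0.17 and 0.49 and fell by 0.71 ± 0.15 (adjusted p = 0.0167). Its probe sets gave -0.50 and -0.93, and the call was lost without Clock replicates 2 or 3 or WT replicate 4 (largest adjusted p = 0.0612). Fgf16, a heart-enriched fibroblast growth factor, fell by 0.34 ± 0.06 (adjusted p = 0.00967), so that 2 of 30 vascular growth factor and receptor genes fell and none rose. Without Clock replicate 1, 2 members of that list rose as well, and with the mean of the immediate early genes as a covariate neither Fgf16 (adjusted p = 0.0525) nor Angpt1 (adjusted p = 0.0544) passed. None of 33 WNT and NOTCH genes passed (1 fell without Clock replicate 4), where Hey2 was at -0.40 ± 0.10 (adjusted p = 0.0622).

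Of 30 inflammatory and adhesion genes 4 fell and none rose, although the list's median was 0.04. Vcam1, which leukocytes bind on activated endothelium, lay at -0.29, -0.25, -0.25 and -0.39 in Clock hearts and at 0.13, 0.40, 0.43 and 0.03 in WT hearts. It fell by 0.54 ± 0.10 (adjusted p = 0.0109) without overlap. Il15, a cytokine gene also made by muscle, lay at -0.09, -0.18, -0.12 and -0.10 against 0.29, 0.18, 0.48 and 0.33 and fell by 0.44 ± 0.07 (adjusted p = 0.00186). The alarmin Il33 (-0.45 ± 0.10, adjusted p = 0.0211) and lipocalin 2 (Lcn2, -0.52 ± 0.12, adjusted p = 0.034) were the others, and the count was 2 without Clock replicate 1 or 2. Cd59a, an inhibitor of complement, fell by 0.38 ± 0.08 (adjusted p = 0.0206), the only one of 20 complement and antigen presentation genes to pass. The call was lost without Clock replicates 3 or 4 or WT replicates 3 or 4 (largest adjusted p = 0.0765) and with the early gene covariate (adjusted p = 0.0695). None of 23 interferon response genes passed.

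Of 29 immediate early genes, which switch on within minutes of stimulation or handling, 26 had positive differences, against 50.2% of all genes. Their median was 0.23, but only Egr2 (0.47 ± 0.09, adjusted p = 0.014, call lost without Clock replicate 3) rose and Ier3 (-0.64 ± 0.11, adjusted p = 0.00539) fell. The mean of this list varied from heart to heart, at -0.36, 0.09, 0.36 and -0.20 in the Clock hearts and at -0.46, -0.25, 0.04 and -0.56 in the WT hearts. The groups overlapped, and Clock replicate 3 was the highest and WT replicate 4 the lowest. The comparison was repeated with this mean as a covariate, which called 282 genes, 240 of them among the 422. Thbs1 then lay at 0.97 (adjusted p = 0.149) and Adamts9 at 0.56 (adjusted p = 0.151), while Arntl lay at 2.06 and Cdkn1a at 1.56 and both passed. No member passed any more among the genes of branched-chain amino acid breakdown, fatty acid uptake, glycogen and the sarcomere, and Naprt, Mef2a and Nfil3 lost their calls. The other matrix proteins went from 5 calls to 2 and the antioxidant genes that rose from 3 to 1. The part of these genes in the other differences was not tested.

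Cell type markers were read in the same way to see whether the groups may have held different cells. In bulk tissue, fewer cells of a type and less RNA per cell cannot be told apart. Of 14 endothelial markers 4 rose, none fell, 11 had positive differences, and the median was 0.23. Among all genes 1.13% rose, 0.771% fell and 50.2% had positive differences. Besides Cldn5, these were Esam (0.39 ± 0.07, adjusted p = 0.00707) and Egfl7 (0.29 ± 0.06, adjusted p = 0.0189), both of endothelial contacts and vessel growth, and the guidance receptor Robo4 (0.44 ± 0.09, adjusted p = 0.0199). Esam lay at 0.16, 0.16, 0.22 and 0.07 in Clock hearts and at -0.43, -0.20, -0.06 and -0.27 in WT hearts. The endothelial mean lay at -0.03, 0.10, 0.11 and 0.16 in Clock hearts and at -0.21, -0.18, -0.21 and -0.14 in WT hearts, without overlap. List means lay apart in lists without any call too. That of calcium handling was at least 0.0099 in Clock hearts and at most 0.0068 in WT hearts. For cardiac and vascular transcription factors these limits were -0.0314 and -0.0343. Without 1 heart 2 to 6 endothelial markers passed, with 2 without Clock replicates 2 or 4 or WT replicate 3 and 6 without Clock replicate 1. The part of endothelial RNA in the rises of Cldn5, Rhoj, Bcl6b and the collagen IV chains was not tested.

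Other cell types showed fewer differences. None of 14 cardiomyocyte markers passed, and their mean lay between -0.03 and 0.04 in Clock hearts and between -0.07 and -0.02 in WT hearts. None of 14 fibroblast markers passed either, and 1 rose without WT replicate 2. Of these markers 12 had positive differences, against 50.2% of all genes, and the list's median was 0.09 (0.26 on chow). Their mean lay between -0.08 and 0.22 in the Clock hearts and between -0.16 and 0.13 in the WT hearts, and so overlapped. The part of fibroblast RNA in the matrix rises was not tested. None of the markers of smooth muscle (10), endocardium (8), macrophages (12), monocytes and dendritic cells (8), T and NK cells (8), B cells (6), mast cells (7), platelets (5), adipocytes (8), Schwann cells and neurons (7), mesothelium (7), lymphatic endothelium (6), atrial cardiomyocytes (8), skeletal muscle (9) or, for the 1 gene measured, erythroid cells passed, although 1 Schwann cell and neuron marker fell without Clock replicate 3 or WT replicate 1, 1 mast cell marker fell without WT replicate 4 and 1 skeletal muscle marker rose without Clock replicate 1. Single calls were made among pericyte markers (Abcc9, lower), arterial markers (Fbln5, higher) and neutrophil markers (Mmp9, higher), all of which other cells make too.

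**Figure D4:**
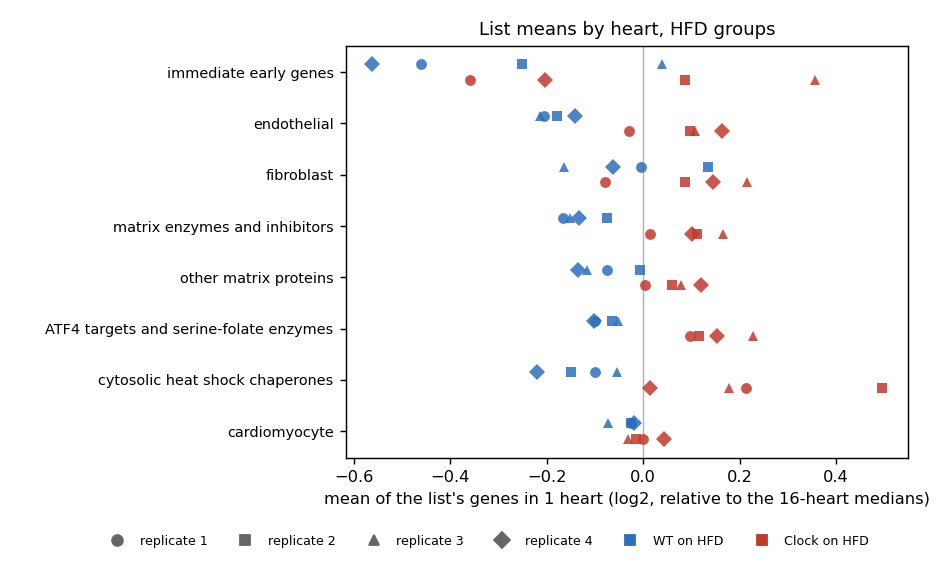
Mean of all measured genes of 8 lists in each heart on HFD (log2, relative to the 16-heart medians). WT hearts are in blue, Clock hearts in red, and each replicate number has a symbol. No pairing of hearts by number is stated in the labels. The groups lie apart for endothelial, matrix, ATF4 and heat shock lists and overlap for immediate early, fibroblast and cardiomyocyte lists. Means of lists that are not drawn lay apart too, among them calcium handling, of which no gene passed.

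The hearts on chow show which of these differences were present without the HFD. On chow 109 genes differed (0.491% of those tested), and 73 of them were among the 422. Of the 251 genes that rose on HFD, 238 also had positive differences on chow, with a median of 0.20 there against 0.37 on HFD. Of the 171 that fell, 156 were negative on chow, at a median of -0.22 against -0.38. In all 93.4% kept their sign, against 60.2% of all genes. The genes were chosen by their difference on HFD, so a smaller difference on chow is partly given by that choice. No array was shared between the genotype differences of the 2 diets.

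The difference between the diets was itself tested as an interaction. It passed for 0 genes (0.00%), with 0.15 as the smallest adjusted p from limma, while 1122 genes (5.06%) were under 0.05 without adjustment, 156 of them among the 422. The count of 0 was the same in every other setting tried for it: the robust fit, array weights, repeated quantile normalization, the replicate block, the early gene covariate and each of the 16 hearts left out. So no gene was shown to differ more on one diet than on the other, and the values that follow are descriptions.

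Cdkn1a had the widest gap between the diets among genes higher on HFD, with means of 0.40 ± 0.16 (SD, n = 4) in Clock and -1.36 ± 0.33 in WT hearts on HFD and 0.34 ± 0.57 and -0.07 ± 0.33 on chow. The interaction was 1.35 ± 0.33 (adjusted p = 0.76). For Arntl the WT mean was -1.88 ± 0.24 (SD, n = 4) on HFD and -0.45 ± 0.78 on chow, with an interaction of 1.20 ± 0.36 (adjusted p = 0.793). The WT mean of Cldn5 was -0.79 ± 0.13 (SD, n = 4) on HFD and 0.02 ± 0.16 on chow, Thbs1 at -1.11 ± 0.53 and 0.12 ± 0.21. The Clock means of Cldn5 were 0.42 ± 0.37 on HFD and 0.29 ± 0.32 on chow, and those of Thbs1 were 0.05 ± 0.49 and 0.08 ± 0.48. The Clock hearts on the 2 diets overlapped in Cdkn1a, Cldn5 and Thbs1, and the WT hearts on HFD lay below all the others in these 3 genes. In Arntl the Clock hearts did not overlap between diets (-0.05 to 0.09 on HFD and 0.12 to 0.43 on chow), and WT hearts on chow ran from -1.34 to 0.54. The interactions were 0.94 ± 0.23 for Cldn5 (adjusted p = 0.76) and 1.19 ± 0.39 for Thbs1 (adjusted p = 0.846).

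Among the genes that fell, Bmp4 averaged 0.50 ± 0.11 (SD, n = 4) in the HFD-fed WT hearts and -0.03 ± 0.05 in WT hearts on chow, with Clock means of -0.21 ± 0.27 and -0.07 ± 0.13. Its genotype difference on chow was -0.04, and the interaction -0.68 ± 0.15 (adjusted p = 0.71). Wee1 differed by -1.05 on HFD and -0.41 on chow, Per3 by -1.34 and -0.79, Dbp by -2.73 and -2.05 and Ces1d by -2.55 and -1.63. WT replicate 4 on chow stood apart from the other 3 WT hearts on chow in several of these genes. It lay at 0.37 in Dbp (the others 1.71 to 2.29), 0.36 in Ces1d (1.37 to 1.63), -0.01 in Per3 (0.44 to 0.93) and 0.54 in Arntl (-1.34 to -0.32). Without it the chow differences were -2.45 in Dbp, -1.91 in Ces1d, -0.96 in Per3 and 1.05 in Arntl, and the interactions shrank to -0.28, -0.64, -0.38 and 0.87, from -0.68, -0.92, -0.55 and 1.20 with it. Without WT replicate 3 on chow the differences were -0.26 in Wee1 and 0.42 in Arntl. Ptgds differed less on HFD (-1.26) than on chow (-1.93). Several of the firmest differences were alike on both diets: Nr1d1 by -1.04 on each, Ano4 by -1.23 and -1.20, and Gm19522 by -1.57 and -1.49.

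**Figure D5:**
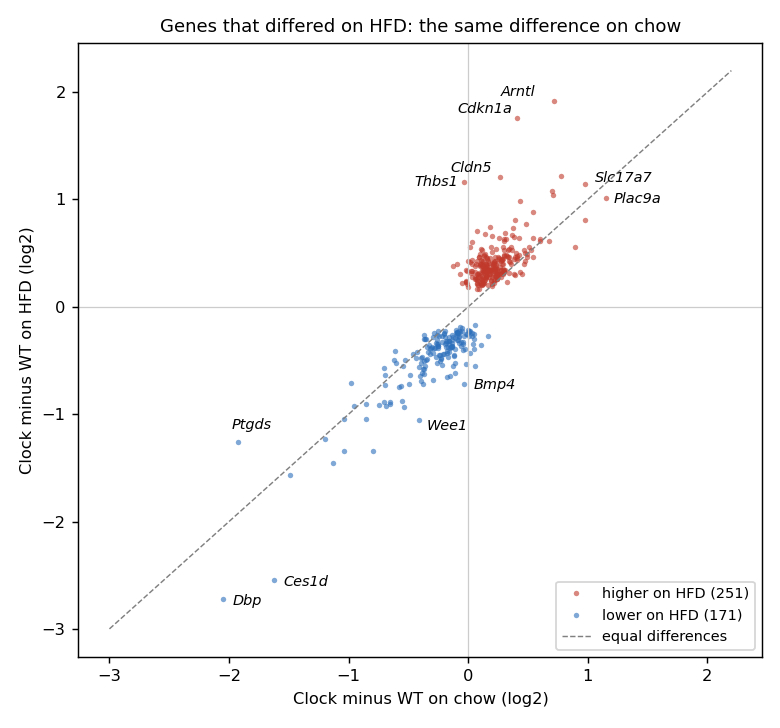
Clock minus WT difference on chow (horizontal, log2) and on HFD (vertical, log2) for the 422 genes that differed on HFD, red where higher and blue where lower, with a dashed line of equal differences. Most points have the same sign on both diets; Thbs1 (-0.03) and Bmp4 (-0.04) lie near 0 on chow, while Plac9a (1.01 on HFD and 1.15 on chow) lies by the line.

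Differing genes lay on all autosomes and X, at 1.28% to 2.74% of the measured genes of each. None of the 10 genes measured next to Clock on chromosome 5, 5 on each side, passed. On chromosome 14, Plac9a and Lrtm1 rose and Prxl2a fell on both diets. Lrtm1 lay at 0.49, 0.43, 0.33 and 0.33 in Clock hearts and at -0.23, -0.24, -0.22 and -0.20 in WT hearts on HFD, apart by 0.62 ± 0.06 (adjusted p = 1.66e-05) and by 0.67 on chow. These 3 genes are the numbers 113, 131 and 229 of 797 measured genes in order along the chromosome. By gene type, 400 of 18987 measured protein-coding genes differed, 14 of 1995 long noncoding RNA genes and 2 of 478 miRNA genes. Over all types it was 422 of 22180.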

How the data were processed

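RNA of 16 mouse hearts was read on 1 Affymetrix array per mouse, and the 8 HFD arrays are the ones compared. The deposited log2 values cover 34351 probe sets. The authors centred each probe set on its median over the 16 arrays, as the values themselves show (largest remaining median 5e-07), which removes all levels and leaves signal over background unknown. The software, background correction and normalization are stated in no source used here, and neither is array date or batch. Every array gave 1 value per probe set, and the number of arrays limits the precision.

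Probe sets with 1 gene symbol (23521) were averaged per gene, while those with several (1814) or none (9016) were used in 1 alternative only. Gene IDs were looked up in RefSeq (GRCm38.p6), with 0 symbols changed and 193 probe sets unmatched. Of the 22180 genes, 1082 have more than 1 probe set.

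limma 3.58.1 (lmFit, eBayes) in R 4.3.3 fitted 1 mean per group over all 16 arrays, with 12 residual and 4.16 prior degrees of freedom, contrasts of Clock against WT on each diet and their difference, and Benjamini-Hochberg adjustment with a threshold of 0.05. The fit was tested on simulated data. The labels call the replicates biological, with 4 mice in each group. Alternatives were other probe set rules, only the HFD arrays, robust eBayes, array weights, repeated quantile normalization, median centring, a replicate block, a filter on the smallest spread, an early gene covariate and each array left out.

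The genes compared, 42 gene lists and 21 marker lists were chosen with earlier results of these data known. Named are the 20 largest rises and 20 largest falls among genes past the threshold whose groups do not overlap (predicted genes left out), the 10 smallest p, the 6 most positive and 6 most negative interactions among called genes, all clock list members, passing members of other lists or, where none passes, the 2 with the smallest p. Promoters are from RefSeq. Figures used Python 3.11.15, numpy, pandas and matplotlib.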

Additional observations from a re-analysis of the deposited data

Results flagged for a closer look

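Single hearts stood apart in 38 of 684 groups of 4 values checked over the named genes and the early gene mean on both diets, or 5.56%, where chance alone marks about 1 group in 20. In each, the gap to the nearest heart passed the 95% limit of Dixon's test.

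On HFD, Clock replicate 1 was the highest of its group in Mmut (-0.03, the others -0.16 to -0.14), Mef2a (-0.10, the others -0.16 to -0.15) and Srf (0.12, the others -0.01 to near 0) and the lowest in Txnrd1 (0.06, the others 0.20 to 0.23). Clock replicate 4 was the highest in Il33 (0.02, the others all -0.24) and Eci2 (0.11, the others near 0). Clock replicate 2 was the highest in Upk1b (0.19, the others -0.22 to -0.16).

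WT replicate 1 on HFD was the lowest of its group in the clock genes Dbp (1.86, the others 2.36 to 2.45) and Per3 (0.93, the others 1.19 to 1.22), and both stayed far above every Clock heart. WT replicate 2 was the highest in Rhoj (-0.54, the others -0.61 to -0.60), Csnk1e (0.06, the others -0.03 to -0.02) and Flnc (-0.07, the others -0.19 to -0.18). WT replicate 3 was the lowest in Col4a1 (-0.59, the others -0.20 to -0.18), and WT replicate 4 the highest in Egfl7 (-0.18, the others -0.34 to -0.32).

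On chow, Clock replicate 1 was the highest of its group in Chil3 (0.16, the others -0.16 to -0.11) and Gp9 (1.02, the others -0.03 to 0.11) and the lowest in Cd59a (-0.32, the others -0.04 to 0.02). Clock replicate 2 was the highest in Srf (0.32, the others 0.10 to 0.14) and Upk1b (0.22, the others -0.03 to 0.01). Clock replicate 3 was the highest in Col4a1 (0.23, the others 0.03 to 0.06) and Mmp9 (0.56, the others 0.12 to 0.18) and the lowest in Dbt (-0.17, the others near 0). Clock replicate 4 was the highest in Ciart (0.17, the others -0.30 to -0.25) and Lcn2 (0.05, the others -0.39 to -0.35) and the lowest in Fbxl21 (-0.12, the others 0.03 to 0.06), Ccnd2 (-0.20, the others 0.02 to 0.03) and Capn2 (-0.08, the others 0.01 to 0.03).

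WT replicate 2 on chow was far above its group in the interferon-induced GTPase gene Iigp1 (2.94, the others 0.12 to 0.32) and the highest in Stat2 (0.60, the others -0.11 to near 0). It was the lowest in Hk1 (-0.23, the others -0.06 to -0.03), Atf4 (-0.16, the others near 0) and Ano1 (-0.16, the others near 0). WT replicate 3 on chow was the highest in Bcl6b (0.47, the others near 0 to 0.08) and Reln (0.00, the others -0.14 to -0.12) and the lowest in Cd4 (-0.03, the others 0.22 to 0.27). WT replicate 4 on chow was the highest in Vwa3a (-0.03, the others -0.25 to -0.22) and the lowest in Rora (-0.05, the others 0.07 to 0.08) and Cpa3 (-0.21, the others near 0).

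Of 10830 probe sets with no single gene symbol, which the gene table leaves out, 90 passed when every probe set was its own feature, or 0.831%. Of these, 39 were higher in the Clock hearts and 51 lower, and their differences ran from -1.84 to 1.14.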

How the results depend on the processing

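The 422 genes were 345 with the replicate block (196 higher and 149 lower, 322 shared) and 282 with the early gene covariate (165 and 117). The 8 HFD arrays alone called 427 genes, 320 of them among the 422. Counts were 518 with array weights, 452 after quantile normalization, 424 after median centring and 436 with the probe set of largest spread. They were 417 in the robust fit, 472 without the fifth of smallest spread and 481 over all probe sets. Leaving out 1 HFD heart gave 241 to 344. On chow, the 109 genes were 49 to 144 with 1 chow heart left out, 49 without Clock replicate 1 or WT replicate 2, 64 without Clock replicate 3 and 71 without Clock replicate 2, and 85 with the block. The interaction count was 0 throughout.

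Same-numbered Clock and WT hearts on HFD correlated by 0.053, -0.033, 0.103 and 0.163 in their deviations from the group means. Hearts with unlike numbers correlated by -0.174 to 0.056. The labels state no pairing, and whether same-numbered hearts shared any handling was not tested. The replicate block is therefore given only as an alternative.

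Over the named genes 3053 repeats were made: 2744 kept direction and side of the threshold, 275 lost the call, 24 gained one and 10 changed sign, all 10 in genes without a call. The cause was not tested. Rorb (0.01) ranged from -0.05 to 0.06 with 1 heart left out, Slc4a1 (0.01) from -0.04 to 0.07 and Gp9 (0.13) from -0.05 to 0.25. Rorb lay at -0.00 with array weights, -0.01 after quantile normalization, -0.09 with the early gene covariate, -0.05 without Clock replicate 1 and -0.04 without Clock replicate 3 or WT replicate 1. Slc4a1 lay at -0.02, -0.03 and -0.04 without Clock replicates 1 and 2 and WT replicate 1, and Gp9 at -0.05 without Clock replicate 3. eBayes with trend and a filter on dim genes were not run, since centred values hold no level.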
